A study of Mus musculus with 2 samples.

Results

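RNA-Seq of brown preadipocytes (D0) and differentiated brown adipocytes (D7) was examined for the genes that decide what happens to pyruvate in the mitochondrion. The genes were taken by symbol from the deposited FPKM table. They are the pyruvate dehydrogenase subunits Pdha1, Pdhb and Dlat, the kinases Pdk1, Pdk2, Pdk3 and Pdk4, the phosphatases Pdp1 and Pdp2, and pyruvate carboxylase, Pcx. All 10 were found, among 23359 symbols with values and 14984 with FPKM above 0 in both libraries. FPKM is the number of fragments per kb of transcript, scaled to the size of the library, so that levels of different genes can be set side by side.

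Both stages came from interscapular brown adipose tissue of newborn C57BL/6 mice, and each stage has 1 library. For both, cells were plated 4 days before induction in medium with serum at 10%, insulin at 0.1 μM and the active thyroid hormone, T3, at 1 nM. The D0 cells were taken at day 0. The D7 cells also had 2 days of dexamethasone (2 μg/ml), indomethacin (0.125 mM) and IBMX (0.5 mM), and were harvested on day 7. The methods of the paper give other concentrations of insulin and dexamethasone, name the substrain C57BL/6J, and describe cells immortalized with large T where the labels name primary cultures. Neither source says whether RNA of several animals was pooled. The paper states that the study used 4 mice, male or female, at 1 day of age.

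Pyruvate dehydrogenase is the mitochondrial complex that turns pyruvate into acetyl-CoA, and so links glycolysis to the citrate cycle and to the synthesis of fatty acids. Its E1 enzyme is built from alpha chains (Pdha1) and beta chains (Pdhb), its E2 core is Dlat, and its E3 enzyme is Dld, which is held in place by Pdhx. Pyruvate dehydrogenase kinases switch E1 off by phosphorylating its alpha chain, and the phosphatases Pdp1 and Pdp2 switch it on again. Pyruvate carboxylase takes the other mitochondrial route and makes oxaloacetate from pyruvate. In adipocytes this serves the export of acetyl units as citrate and the supply of glycerol for triglycerides.

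The numbers of fragments behind the values were recovered from genes with a single exon. In 603 such genes, low values came out whole (to within 0.1 of a fragment) in 100% of 81 cases at D0 and of 89 cases at D7. The denominator and a correction to the length were chosen to make this share high, so it is not a separate check. Denominators were 21471814 (D0) and 18265921 (D7) fragments. The 10 genes rested on about 124 to 4643 fragments at D0 and on about 428 to 60961 at D7. Intervals given below are 95% intervals computed from them. Such an interval covers only counting error, and compares 2 libraries and not the stages, since the spread between cultures of one stage was not measured. No p-value was computed. Markers of adipocytes were higher at D7 in 7 of the 7 genes of the list with a ratio, and Lep was listed at 0 at D0. Of 8 markers of brown adipocytes, Ucp1, Cidea, Elovl3 and Cox8b were listed at 0 at D0 and none at D7. At D7, Cox7a1, Cox8b, Elovl3 and Cidea had 388.6, 253, 34.2 and 24.4 FPKM. Ucp1, Ppargc1a and Dio2 had 4.57, 4.41 and 2.11 FPKM at D7. These lay under the D7 median of 6.81 over all genes above 0 in both libraries. Prdm16, a regulator of brown fat identity, had 0.835 and 1.02 FPKM, and the interval of its ratio (0.965 to 1.53) includes 1. The 7 macrophage markers were all higher at D7, with a summed FPKM of 140.4 at D0 and 507 at D7. Endothelial markers summed to 1.58 and 2.62, and skeletal muscle markers to 51.2 and 4.81 with Myod1 and Ckm at 0 in both. Most of the muscle sum at D0 was 1 gene, Acta1, with 45.4 and 1.73 FPKM. The preadipocyte and fibroblast list summed to 4143 and 2071, of which Col1a1 made up 1900 and 600.7, and of its 7 genes 2 were lower (Col1a1 and Thy1), 2 higher (Dlk1, 10.8-fold, and Cd34, 8.29-fold) and 3 between. The part of the other cell types in the values of the pyruvate genes was not tested, and in a bulk library a changed share of cells and a changed level per cell cannot be told apart.

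Of the 10 genes, 9 had at least 2.0 times their D0 level at D7, and 1, Pdk3, had at most 0.5 of it. Over all 14984 genes, 18.5% were higher and 13.2% were lower by that measure. (With values under 0.01 set to 0.01 and each library divided by its median, 2835 of 23359 genes were higher and 3832 lower, against 2765 and 1980 of the 14984, and the 10 genes were 8 higher and 1 lower. The counts over all genes given in the paper nearly equal those of this scaling.) The median log2 ratio of D7 to D0 was 2.67 for the 10 genes and 0.02 for all genes. None of the 10 intervals included a ratio of 1. The share of all genes with such an interval was not counted. At this depth small ratios can also exclude 1, such as that of Bckdk, outside the set, at 1.38 (1.27 to 1.49). FPKM was at least 1 in both libraries for all 10, so no gene of the set was called on a value near 0.

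**Figure D1:**
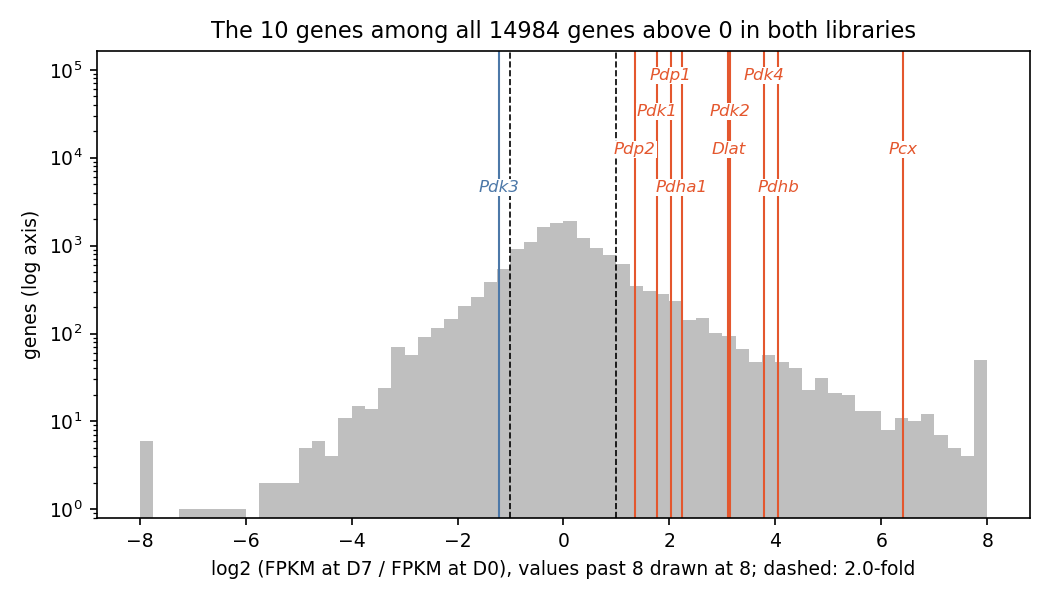
Histogram of the log2 ratio of FPKM at D7 to FPKM at D0 for the 14984 genes above 0 in both libraries (log count axis), with a line for each of the 10 genes and dashed lines at 2.0-fold. Values past 8 are drawn at 8. Pdk3 lies left of the lower dashed line at -1.21, and the other 9 lie right of the upper one, from Pdp2 at 1.35 to Pcx at 6.42.

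Among the subunits, the beta chain of E1 had the highest ratio of D7 to D0 and the alpha chain the lowest. Pdha1 (ENSMUSG00000031299.10) lies on the minus strand of chromosome X of mm10 from 160122209 to 160138413. Its FPKM was 81.0 in the D0 cells and 382 in the D7 cells, 4.71-fold higher (95% interval 4.56 to 4.87). Pdhb (ENSMUSG00000021748.9) lies on the minus strand of chromosome 14 from 8165996 to 8173025. Its FPKM was 52.0 in the D0 cells and 866 in the D7 cells, 16.7-fold higher (15.8 to 17.6). At D0 the alpha chain was therefore the higher of the pair, and at D7 the beta chain was. The ratio of Pdhb to Pdha1 within a library went from 0.642 (0.605 to 0.681) at D0 to 2.27 (2.22 to 2.31) at D7. The D7 to D0 ratio of Pdhb was 3.54 times that of Pdha1 (3.32 to 3.76), a value that does not depend on the scaling between libraries. The body of Pdha1 is overlapped on the other strand by Map3k15, whose FPKM was 0.324 and 0.867. The locus deposited for Pdha1 spans 149904 bp, against 16205 bp for its body. It also holds the processed pseudogenes Gm15194 and Gm8682. Whether this bears on the value of Pdha1 was not tested. Pdha2, the testis form of the alpha chain, was listed at 0 in both libraries.

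Dlat (ENSMUSG00000000168.9), the E2 acetyltransferase that forms the core of the complex, lies on the minus strand of chromosome 9 from 50634633 to 50659780. Its FPKM was 21.3 in the D0 cells and 184 in the D7 cells, 8.65-fold higher (8.23 to 9.10). Dlat stood at 0.263 of the level of Pdha1 at D0 and at 0.483 at D7. Pdhx, the binding protein that anchors E3 to the core, stood at 7.53 FPKM in preadipocytes and 62.5 FPKM in brown adipocytes, 8.30-fold higher (7.45 to 9.27). The ratio of Pdhx was 0.959 times that of Dlat, and the interval of 0.852 to 1.08 includes 1. Dld, the E3 dehydrogenase, stood at 36.3 FPKM in preadipocytes and 210.3 FPKM in brown adipocytes, 5.79-fold higher (5.51 to 6.09). Its ratio was 1.23 times that of Pdha1 (1.16 to 1.31) and 0.669 times that of Dlat (0.624 to 0.718). The subunits of 1 complex thus had ratios between 4.71 and 16.7, with the core and its E3-binding protein side by side.

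**Figure D2:**
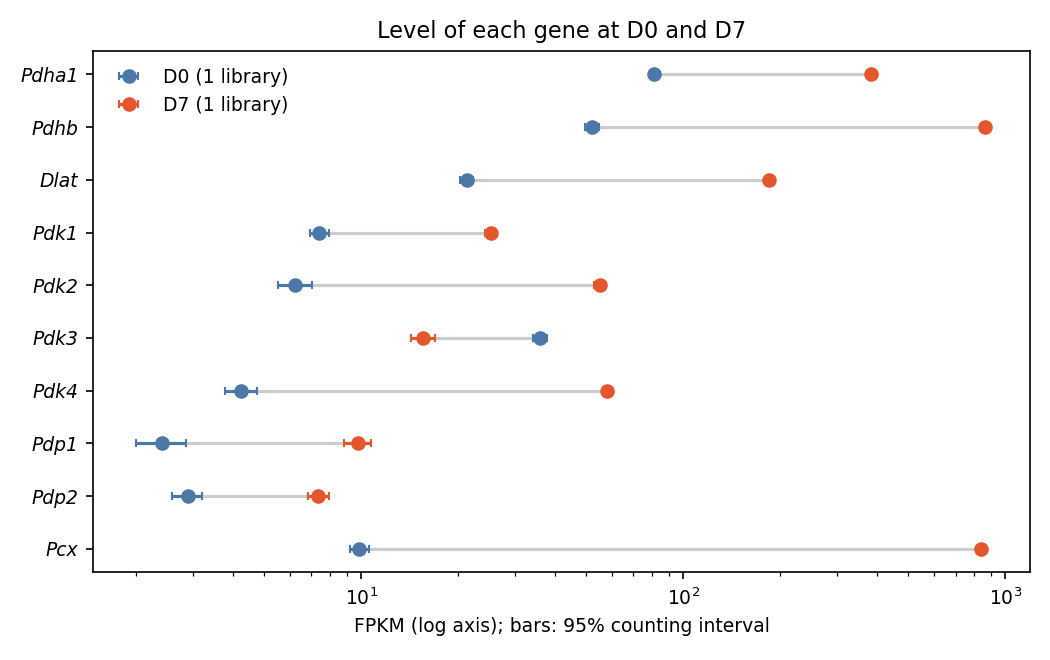
FPKM of each of the 10 genes at D0 and at D7 on a log axis, with 1 library per stage and bars for the 95% counting interval. Pdk3 is the only gene whose D7 point lies left of its D0 point, and Pcx has the longest distance, from 9.86 to 842.

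The start regions of both E1 chains are shown because the ratios of these chains differed. Whether the sequences bear on the ratios was not tested. The sequences are from RefSeq on GRCm38.p6 (the build named mm10), from 250 bases before to 50 bases after the start site, and run in the direction of the gene. Capitals mark CCAAT (read as ATTGG on the other strand) and the GC box GGGCGG (read as CCGCCC). The window of Pdhb lies on the minus strand at chr14:8172943-8173242 and that of Pdha1 on the minus strand at chrX:160138381-160138680.
Pdhb: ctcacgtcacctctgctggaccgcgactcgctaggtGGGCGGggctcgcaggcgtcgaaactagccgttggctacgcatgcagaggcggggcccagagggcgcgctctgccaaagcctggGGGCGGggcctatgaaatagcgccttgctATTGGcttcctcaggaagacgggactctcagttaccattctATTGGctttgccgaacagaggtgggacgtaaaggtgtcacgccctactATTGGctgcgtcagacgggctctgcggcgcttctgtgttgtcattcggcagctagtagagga
Pdha1: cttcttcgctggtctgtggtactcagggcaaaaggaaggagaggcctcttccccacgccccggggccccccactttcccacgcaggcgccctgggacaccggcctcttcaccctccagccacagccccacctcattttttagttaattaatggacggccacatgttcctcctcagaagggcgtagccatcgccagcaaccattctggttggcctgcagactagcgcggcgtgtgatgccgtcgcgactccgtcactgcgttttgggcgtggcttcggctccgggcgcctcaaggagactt
The Pdhb window held CCAAT 3 times, all on the reverse strand, at -101, -60 and -12 from the start site, and GGGCGG at -214 and -130. The Pdha1 window held neither. GC content was 61.0% and 62.0%, with 24 and 21 CpG pairs.

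The order of the kinases differed between the stages. Pdk3 was the most abundant kinase transcript at D0 and the least abundant at D7, while Pdk4 went from the lowest to the highest. Pdk3 (ENSMUSG00000035232.8, minus strand of chromosome X, 93764607 to 93832201) had 35.9 FPKM in preadipocytes and 15.5 FPKM in brown adipocytes, or 0.432 of its D0 level (0.391 to 0.477). Pdk4 (ENSMUSG00000019577.6, minus strand of chromosome 6, 5483351 to 5496309), the kinase known for its induction by fasting, had 4.22 FPKM before and 58.1 FPKM after differentiation, 13.7-fold higher (12.2 to 15.5). Pdk2 (ENSMUSG00000038967.13, minus strand of chromosome 11, 95026258 to 95041354), a kinase found in most tissues, had 6.23 and 55.2 FPKM, 8.86-fold higher (7.81 to 10.1). The annotated antisense transcript Gm11513 overlaps Pdk2. Pdk1 (ENSMUSG00000006494.11, plus strand of chromosome 2, 71873224 to 71903858), a known target of the hypoxia factor HIF-1, had 7.41 and 25.2 FPKM, 3.40-fold higher (3.14 to 3.69).

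Set against each other, the kinases differed in their D7 to D0 ratios beyond counting error in the 5 pairs compared. That of Pdk4 was 1.55 times that of Pdk2 (1.31 to 1.84) and 4.04 times that of Pdk1 (3.50 to 4.66). That of Pdk2 was 2.60 times that of Pdk1 (2.24 to 3.02), and that of Pdk1 itself was 7.88 times that of Pdk3 (6.94 to 8.94). The ratio of Pdk4 to Pdk3 within a library was 0.118 (0.104 to 0.133) at D0 and 3.74 (3.42 to 4.10) at D7, a 31.8-fold difference (27.3 to 37.1).

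Pdk3 made up 66.8% of the summed kinase FPKM at D0 (65.0% to 68.5%) and 10.1% at D7 (9.29% to 10.9%). Pdk4 made up 7.86% at D0 (7.01% to 8.78%) and 37.7% at D7 (36.6% to 38.8%). The share of Pdk2 was 11.6% at D0 and 35.9% at D7. That of Pdk1 was 13.8% and 16.4%, the smallest shift of the 4. The sum of the kinases was 53.8 FPKM at D0 and 154 FPKM at D7, 2.86-fold higher (2.74 to 2.997). Without Pdk3 the sum of the other 3 was 7.75-fold higher (7.29 to 8.25). Pdha1, the substrate of the kinases, stood at 1.51 times their sum at D0 (1.44 to 1.58) and at 2.48 times at D7 (2.41 to 2.55).

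**Figure D3:**
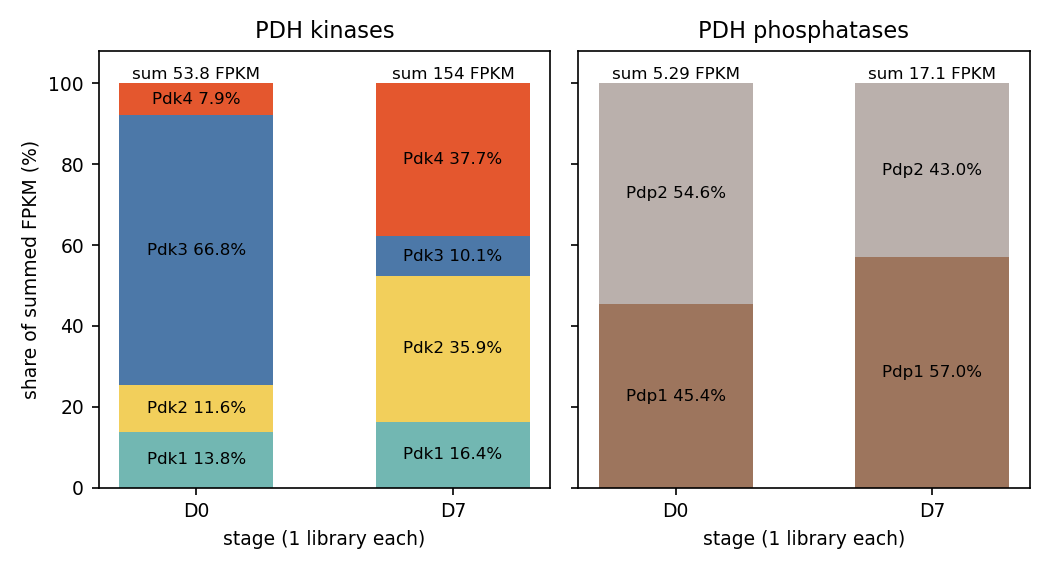
Stacked bars of the share of each kinase (left) and phosphatase (right) in the summed FPKM of its group, in percent, at D0 and D7, with the sum above each bar. Pdk3 fills 66.8% of the kinase bar at D0 and 10.1% at D7, and the bar of the phosphatases shifts from 45.4% to 57.0% Pdp1.

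The start regions of the kinase that was lower at D7 and of the kinase with the highest ratio are shown for comparison. The window of Pdk4 lies on the minus strand at chr6:5496229-5496528 and that of Pdk3 on the minus strand at chrX:93832101-93832400. Capitals mark CCAAT and GGGCGG on either strand as above.
Pdk4: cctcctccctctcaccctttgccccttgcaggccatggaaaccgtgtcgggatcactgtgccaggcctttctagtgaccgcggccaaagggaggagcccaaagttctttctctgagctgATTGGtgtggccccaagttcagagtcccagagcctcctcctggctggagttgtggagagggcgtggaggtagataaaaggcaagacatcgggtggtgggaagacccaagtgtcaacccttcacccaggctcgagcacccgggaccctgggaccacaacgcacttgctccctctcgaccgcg
Pdk3: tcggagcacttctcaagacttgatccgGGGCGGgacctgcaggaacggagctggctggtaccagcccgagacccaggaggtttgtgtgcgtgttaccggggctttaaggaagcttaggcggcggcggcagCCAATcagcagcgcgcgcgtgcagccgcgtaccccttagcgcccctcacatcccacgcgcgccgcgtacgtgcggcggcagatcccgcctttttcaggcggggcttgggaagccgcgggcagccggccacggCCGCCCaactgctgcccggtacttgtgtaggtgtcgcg
Pdk4 held a single CCAAT, on the reverse strand at -131, and no GGGCGG. Pdk3 held CCAAT at -120 and GGGCGG at -223 and, on the reverse strand, at 13 after the start site. The Pdk3 window was the richer in CpG, with 35 pairs against 12, and in GC content, with 68.0% against 60.7%. The median of all 32851 windows was 7 CpG pairs and a GC content of 52.7%.

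Transcripts of the phosphatases were the lowest of the 10 genes at both stages. Over all genes above 0 in both libraries the median FPKM was 6.36 at D0 and 6.81 at D7. Both phosphatases lay below it at D0 and above it at D7. Pdp1 (ENSMUSG00000049225.14, minus strand of chromosome 4, 11958184 to 11966452), the calcium-stimulated form, stood at 2.40 FPKM in preadipocytes and 9.75 FPKM in brown adipocytes, 4.07-fold higher (3.32 to 5.00). Pdp2 (ENSMUSG00000048371.8, plus strand of chromosome 8, 104591451 to 104599026), the form known for its response to insulin in fat, stood at 2.89 FPKM in preadipocytes and 7.36 FPKM in brown adipocytes, 2.55-fold higher (2.24 to 2.90). The intervals of both overlapped at D0, whereas Pdp1 was the higher at D7. The ratio of Pdp1 was 1.60 times that of Pdp2 (1.26 to 2.02), and its share of their sum went from 45.4% (40.1% to 50.5%) to 57.0% (54.0% to 59.9%). Pdpr, the regulatory subunit of the phosphatase, stood at 6.17 FPKM in preadipocytes and 22.2 FPKM in brown adipocytes, 3.61-fold higher (3.29 to 3.95). The ratio of Pdp1 was 1.13 times that of Pdpr, and the interval of 0.905 to 1.40 includes 1.

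The phosphatases together had 5.29 and 17.1 FPKM, 3.23-fold higher at D7 (2.88 to 3.65). Summed kinases stood at 10.2 times the summed phosphatases at D0 (9.14 to 11.3) and at 9.001 times at D7 (8.42 to 9.63), and these intervals overlap. On these intervals, no shift of the balance between kinase and phosphatase transcripts was detectable. With 1 added to each FPKM the values were 7.93 and 8.27. The added 1 weighs most on the lowest sum, that of the phosphatases at D0, so this turn of direction cannot decide the question. The locus given for Pdp2 in the table also spans Nae1, with an FPKM of 19.9 and 18.5, although no gene overlaps the body of Pdp2. Pdp2 was the gene nearest to 2.0 among those that were higher. Its ratio was 1.995, under 2.0, under the scaling by library medians named above.

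**Figure D4:**
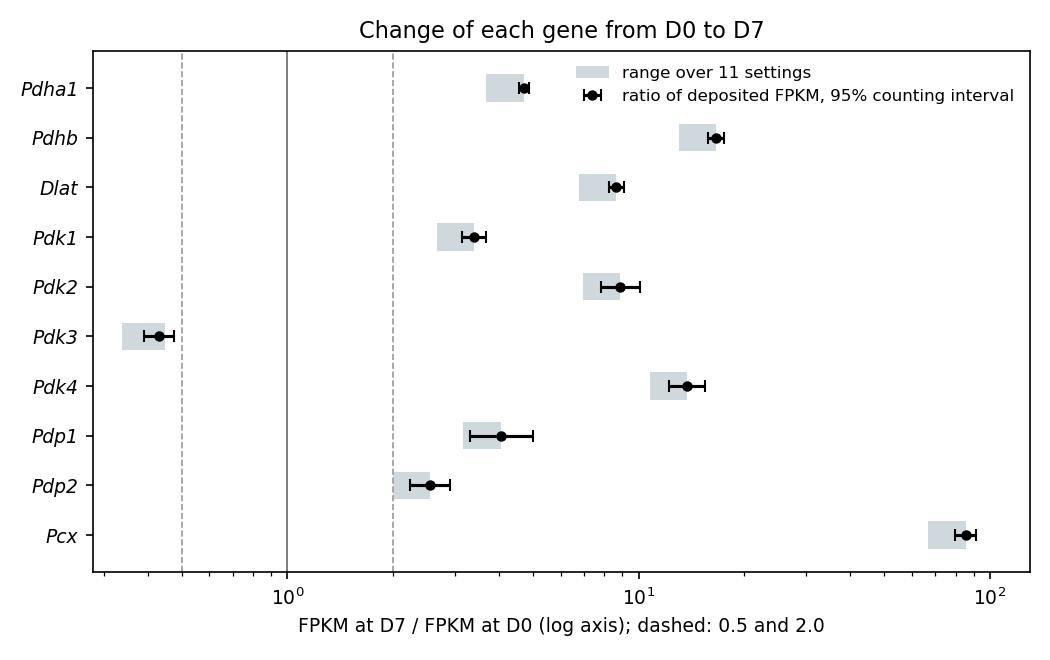
Ratio of FPKM at D7 to FPKM at D0 for each gene on a log axis, with its 95% counting interval (points and bars) and the range over 11 settings of scaling, pseudocount and filter (grey). Dashed lines stand at 0.5 and 2.0. The range of Pdp2 reaches down to 1.995, and those of the other 9 genes lie wholly on one side, with Pdk3 between 0.338 and 0.447.

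In the order of levels at D0, Pdha1 was highest and was followed by Pdhb, Pdk3, Dlat, Pcx, Pdk1, Pdk2, Pdk4, Pdp2 and Pdp1. At D7 the order was Pdhb, Pcx, Pdha1, Dlat, Pdk4, Pdk2, Pdk1, Pdk3, Pdp1 and Pdp2. Neighbours whose counting intervals overlapped were Pdk1 with Pdk2 and Pdp2 with Pdp1 at D0, and Pdk4 with Pdk2 at D7. The subunits thus stood above the kinases at D7, whereas Pdk3 stood above Dlat at D0, and the phosphatases were last at both stages.

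Pyruvate carboxylase had the highest ratio of the set. Pcx (ENSMUSG00000024892.17) lies on the plus strand of chromosome 19 from 4510472 to 4621752. In preadipocytes it had 9.86 FPKM, on about 840 fragments. In brown adipocytes it had 842 FPKM, on about 60961 fragments, which is 85.4-fold higher (79.8 to 91.5). Pcx was the gene of rank 6044 by FPKM at D0 and of rank 77 at D7. Only 91 of the 14984 genes had a higher ratio, and 11 of these had an FPKM of at least 1 at D0. Its ratio was 18.1 times that of Pdha1 (16.8 to 19.5) and 5.13 times that of Pdhb (4.70 to 5.59). Within a library, Pcx stood at 0.122 of the level of Pdha1 at D0 (0.113 to 0.131) and at 2.21 times at D7 (2.17 to 2.24). At D0 the transcript of E1 alpha was thus the higher one, and at D7 that of the carboxylase. Lrfn4, which lies within Pcx on the opposite strand, was at 10.98 FPKM in preadipocytes and 3.76 FPKM in brown adipocytes.

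The start regions of Pcx are shown because its value is for the gene as a whole. The RefSeq windows give 2 start sites, 83.8 kb apart, at chr19:4510222-4510521 and chr19:4594069-4594368 on the plus strand. The transcript named for Pcx in the table begins at the first of these. GENCODE M21 has other coding transcripts that begin between them, at 4515654 and 4558810. The FPKM value does not say from which start site the fragments at D7 came. Capitals mark CCAAT and GGGCGG as above.
Pcx, first start site: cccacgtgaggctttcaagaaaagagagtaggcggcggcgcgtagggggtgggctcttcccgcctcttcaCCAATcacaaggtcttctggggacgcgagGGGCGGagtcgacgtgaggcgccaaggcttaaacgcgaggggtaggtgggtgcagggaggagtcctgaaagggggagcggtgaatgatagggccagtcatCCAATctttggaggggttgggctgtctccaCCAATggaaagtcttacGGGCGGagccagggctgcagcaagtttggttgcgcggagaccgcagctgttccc
Pcx, second start site: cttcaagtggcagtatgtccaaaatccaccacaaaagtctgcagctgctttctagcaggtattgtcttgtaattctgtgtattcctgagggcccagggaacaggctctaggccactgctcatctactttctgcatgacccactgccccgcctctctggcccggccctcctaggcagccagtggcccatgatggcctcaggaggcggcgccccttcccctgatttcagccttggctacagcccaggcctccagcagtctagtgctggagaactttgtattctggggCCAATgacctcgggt
The first window held CCAAT at -180, -51 and -21 and GGGCGG at -151 and -4, with 20 CpG pairs. The second held CCAAT once, at 36 after the start site, no GGGCGG, and 5 CpG pairs.

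Windows were found for 9 of the 10 genes, 12 in all, since Pcx, Pdk1 and Pdk2 each had a second window. CCAAT was present on either strand in 7 of the 12, against 37.4% of all 32851 windows in RefSeq, and GGGCGG in 6 of the 12, against 35.7%. The hypoxia response core ACGTG was present in 5 of the 12, against 19.6%, in the windows of Pcx, Pdhb, Pdk2, Pdk3 and Pdp2. Both GGGCGG and ACGTG contain CG. The first windows of the 9 genes held 12 to 35 CpG pairs, against a median of 7 over all windows. No comparison with windows of like CpG content was made. Other motifs searched on both strands were found in 0 of the 12. They were AAGGTCA, a half-site of nuclear receptors such as ERR (4.72% of all windows), TGTTTAC, the core of FOXO sites (3.65%), GCGCATGCG, the core of NRF1 sites (1.75%) and TATAAA, the TATA box (13.6%). ACGTG can lie on both strands at overlapping positions, as CACGTG, and no other overlap between motifs was counted. These are letters in a window of 300 bases, which were not tested for binding or for a link to the ratios.

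Genes with nearly the same pair of levels were looked up for 3 of the genes, as the smallest distance between log2 FPKM values over the 2 libraries. Nearest to Pcx were Pnpla2 (distance 0.241), the lipase of triglyceride stores, then Glul (0.436), glutamine synthetase, and Cdo1 (0.649), cysteine dioxygenase. Nearest to Pdk3 were Gng11 (0.0544), Nme4 (0.0716) and Abhd8 (0.0828). Nearest to Pdha1 were Uqcrc2 (0.127), Sdha (0.143) and Idh3b (0.194), which code for parts of respiratory complexes III and II and of a citrate cycle enzyme. With 2 libraries, likeness means only a similar level at both stages.

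Pyruvate reaches both enzymes through the mitochondrial pyruvate carrier, and both of its genes were higher at D7. Mpc1 had 34.4 and 838 FPKM, 24.4-fold higher (22.4 to 26.6), and Mpc2 had 41.0 and 569 FPKM, 13.9-fold higher (12.9 to 15.0). At D7, Mpc1 was thus close to Pdhb and Pcx in level, and the ratio of Pdhb was 0.683 times that of Mpc1 (0.619 to 0.754). Dlat carries lipoate on a swinging arm, and 5 of the 7 genes for lipoate attachment were at least 2.0-fold higher in brown adipocytes and none was lower to that extent, which is the measure for the other lists too. The count was 3 under the scaling by library medians. Their median log2 ratio was 1.21, against 0.02 for all genes. The ratios were 5.62 for Mecr and 3.42 for Oxsm, both of mitochondrial fatty acid synthesis, 2.95 for Ndufab1, the acyl carrier protein, and 2.31 for Lias, lipoate synthase. Lipt2, a lipoyltransferase, had a ratio of 1.70 (1.26 to 2.34).

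The complexes that are built like pyruvate dehydrogenase allow a comparison by role. They are the branched-chain dehydrogenase (Bckdha, Bckdhb, Dbt) and the 2-oxoglutarate dehydrogenase of the citrate cycle (Ogdh, Dlst), and they use the same E3, Dld. Of the 9 genes of this list, 6 were higher, 1 was lower and 2 did not reach 2.0-fold, with a median log2 ratio of 1.74. The alpha chain of the branched-chain E1, Bckdha, was 12.8-fold higher and its beta chain, Bckdhb, 8.56-fold higher, whereas in pyruvate dehydrogenase the beta chain had the higher ratio. The ratio of Pdha1 was 0.367 times that of Bckdha (0.338 to 0.398), and the ratio of Pdhb was 1.95 times that of Bckdhb (1.61 to 2.35). For the E2 subunits, the ratio of Dlat was 1.73 times that of Dbt (1.52 to 1.97) and 2.60 times that of Dlst (2.44 to 2.77). Ogdh had a ratio of 3.81. Ogdhl, its homologue, was the lower one, with 18.2 and 6.33 FPKM. Bckdk, the kinase of the branched-chain complex, stood at 17.4 FPKM in preadipocytes and 24.0 FPKM in brown adipocytes, 1.38-fold higher (1.27 to 1.49). Pdk1, the kinase with the lowest ratio among the 3 that were higher at D7, still had 2.47 times the ratio of Bckdk (2.21 to 2.76). Pdp1 had 1.61 times the ratio of Ppm1k, the phosphatase of the branched-chain complex (1.23 to 2.10). In all, 25 pairs of genes were compared in this way, and 23 of the intervals did not include 1. The 2 that did were those of Pdhx with Dlat and of Pdp1 with Pdpr. The pairs were chosen after their values were seen, so the count of 23 also reflects that choice.

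Pcx belongs to the biotin-dependent carboxylases. Of the 8 genes of this list, 6 were higher at D7 and none was lower, with a median log2 ratio of 2.26. Acacb and Acaca, the acetyl-CoA carboxylases, were 67.5-fold (54.4 to 84.6) and 30.6-fold (29.4 to 31.9) higher. The ratio of Pcx was 1.27 times that of Acacb (1.01 to 1.58). Acacb, with 0.477 and 32.2 FPKM, was below Pcx at both stages. Pcca and Pccb, the chains of propionyl-CoA carboxylase, were 9.18-fold and 5.88-fold higher, and the ratio of Pcx was 14.5 times that of Pccb (13.1 to 16.1). Btd, which recycles biotin, had a ratio of 1.53 (1.37 to 1.71).

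Of the genes that make pyruvate or use it outside these enzymes, 7 of the 11 above 0 in both libraries were higher and none was lower by 2.0-fold, with a median log2 ratio of 1.78. With FPKM of 1 or more required at both stages, Gpt, Ldhd, Me3 and Pck1 dropped out of the list and 3 were higher. Over all genes, 1267 of 10772 were higher with that filter. Under the scaling by library medians 1 was lower. Gpt, alanine aminotransferase, was 32.8-fold higher (20.5 to 59.4), Ldhd, lactate dehydrogenase D, 28.5-fold (17.8 to 51.6), Me1, cytosolic malic enzyme, 28.4-fold and Gpt2, the mitochondrial aminotransferase, 3.44-fold. Me2, a mitochondrial malic enzyme, was at 15.1 and 15.2 FPKM. The highest levels of the list at D0 were those of Pkm, a pyruvate kinase, and Ldha, a lactate dehydrogenase, and neither reached 2.0-fold. Pkm had 939 and 825 FPKM, a ratio of 0.879 (0.866 to 0.891). Ldha had 774.5 and 1155 FPKM, a ratio of 1.49 (1.47 to 1.515). Pck1 and Pck2, the cytosolic and mitochondrial forms of PEP carboxykinase, had 0.0191 and 0.652 FPKM, on 1 and 30 fragments, and 51.2 and 26.9 FPKM. Pklr, the liver and red cell pyruvate kinase, was listed at 0 at D0 and had 1 fragment at D7. Of the 9 genes that carry acetyl units and oxaloacetate out of the mitochondrion or condense them, 6 were higher and none was lower, with a median log2 ratio of 2.29. The ratios were 30.3 for Slc25a10, the dicarboxylate carrier, 13.6 for Acly, which splits citrate, 8.996 for Slc25a1, the citrate carrier, and 8.67 for Mdh1, cytosolic malate dehydrogenase. Got2 had a ratio of 1.28.

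Transcription regulators known to act on the kinase genes were listed as well. Of 12 known regulators of Pdk4, 8 were higher at D7 and none was lower by 2.0-fold, with a median log2 ratio of 2.23. The count was 5 when FPKM of 0.1 was required at both stages and 3 when FPKM of 1 was. These filters also shortened the list. That at 0.1 removed Ppargc1a, Esrrb and Esrrg, and that at 1 also removed Ppara and Ppargc1b. Over all genes, 2055 of 13348 were higher with the filter at 0.1 and 1267 of 10772 with that at 1. Ppargc1a was 119-fold higher (50.7 to 368) on 5 and 506 fragments, Pparg 33.5-fold, Ppara 18.8-fold and Ppargc1b 16.5-fold. Ppard had a ratio of 1.29. Of 4 known regulators of Pdk1, Hif1a was lower, with 102 and 34.8 FPKM, and Epas1 was higher, with 2.01 and 24.8 FPKM. Arnt, their partner, had a ratio of 0.888 (0.813 to 0.970). Myc had 10.3 and 6.94 FPKM, a ratio of 0.671 (0.575 to 0.778). Pdk1 itself was 3.40-fold higher, as given above.

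**Figure D5:**
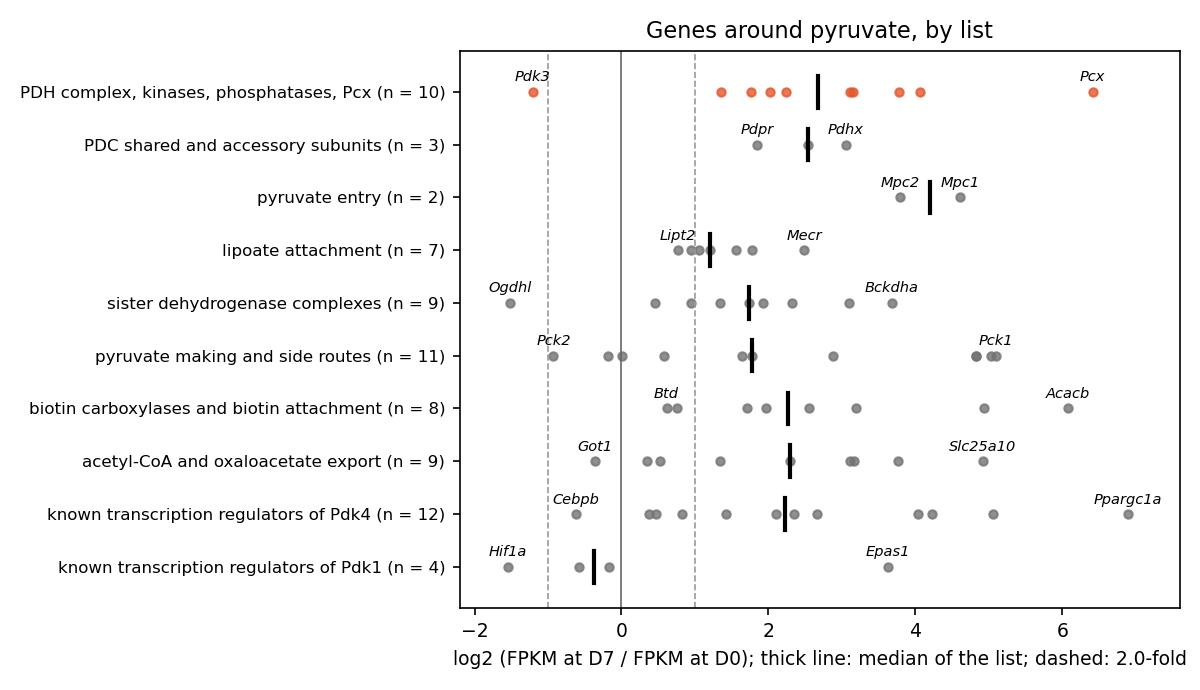
Log2 ratio of FPKM at D7 to FPKM at D0 for the 10 genes (top) and for the genes of each list around pyruvate, 1 point per gene above 0 in both libraries, with the median of each list as a thick line and dashed lines at 2.0-fold. The median is highest for pyruvate entry, at 4.20, and lies below 0 for the regulators of Pdk1, at -0.37.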

How the data were processed

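Single libraries of brown preadipocytes (D0) and brown adipocytes (D7) were sequenced. The authors filtered the reads, removed duplicates and rRNA, used SOAP2 to align them to mm10 and to gene sequences (the labels name Bowtie2), and deposited FPKM values, 1 for each gene in each library. Of 27324 rows, 3963 held no value and were left out. The second cDNA strand was degraded before sequencing, but whether counting used strand is not given in the sources used here, so values of overlapping genes are uncertain. Columns of values not matched to a library numbered 0.

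Ratios of D7 to D0 were computed from the FPKM values without a pseudocount or rescaling, and called at 2.0 or 0.5, after the paper's threshold. The paper's counts of genes nearly equal those of another scaling, the floor of 0.01 with the library median. Where a symbol had several rows, that with the highest mean was used. Fragments were recovered from single-exon genes of at least 600 bp whose ends differed from GENCODE M21 by at most 500 bp, with 179 bp (D0) and 182 bp (D7) taken from each length. Genes with several exons took the length of the transcript the table names, or, as for Pdhb, that of the longest coding transcript, so their fragments and intervals are approximate. Intervals of ratios and shares are Clopper-Pearson intervals at 95%, those of levels are exact Poisson intervals, and those of ratios of ratios were taken on the log scale. For sums, an effective number of fragments was used. A count of 0 allows up to 3 fragments. Scripts were tested on simulated data.

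The 10 genes and the lists were chosen with earlier results of these data known. From each list, up to 4 genes past 2.0-fold with FPKM of at least 1, by size of the log2 ratio, and the gene nearest to a ratio of 1 were named. Dlst, Ppm1k, Ogdhl, Lrfn4, Pkm, Ldha, Pklr, Pck1, Pck2, the single marker genes and the pairs of genes were chosen after their values were seen. Me3, Esrrb, Esrrg and Myc were also named after their values were seen. Adgre1 was found under an older symbol. A further list of markers is not reported here. The alternatives were TPM, scaling by the upper quartile, by the median ratio and by a trimmed mean ratio, a floor of 0.01 with the library median, pseudocounts of 0.1 and 1, filters at 0.1 and 1, summed rows and thresholds of 1.5 and 4.0. Scripts ran in Python 3.11.15 with scipy 1.17.1, pandas 2.3.3, numpy 2.4.6 and matplotlib 3.10.9.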

Additional observations from a re-analysis of the deposited data

How the results depend on the processing

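The count of 9 higher genes was 8 with the floor of 0.01 and the library median, where Pdp2 had a ratio of 1.995, and that scaling multiplied every ratio by 0.783. The other scalings multiplied them by 0.967 to 0.989. No ratio of the 10 genes turned its direction. Of 100 ratios of single genes under the alternatives, 83 lay within their counting interval and 17 moved out of it. The filters at 0.1 and 1 and the summed rows could not move a ratio of the 10 genes. The unchanged ratios from these settings are among the 83. At a threshold of 4.0 the count of lower genes was 0. With a pseudocount of 1, the share at D0 was 63.9% for Pdk3 and 9.04% for Pdk4. With it, Pdha1 stood at 1.42 times the summed kinases at D0, the summed kinases at 7.93 times the summed phosphatases at D0 and 8.27 times at D7, and Pcx at 0.132 of Pdha1 at D0. Of the counts over lists, 299 stayed within 1.5 times and 21 moved. Over all genes, 1532 were higher and 1021 lower with a pseudocount of 1, and 1267 and 1062 when both libraries had to reach 1 FPKM. At a threshold of 1.5 the 10 genes were 9 higher and 1 lower, and at 4.0 they were 7 higher. The shares of all genes at 1.5 and 4.0 were not counted, so the counts at these thresholds have no background beside them. No paired analysis was possible because each stage has 1 library, and for the same reason no library could be left out. Differences between cultures of one stage, and isoforms behind a value, were not measured.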
